A study of Mus musculus with 4 samples.

Results

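The replication-type histone genes are the small, mostly intronless genes of the Hist1 to Hist4 clusters, which encode the linker histone H1 and the core histones H2A, H2B, H3 and H4. They were chosen as the GENCODE vM21 protein-coding genes whose symbol begins with Hist1h, Hist2h, Hist3h or Hist4h. The annotation (GRCm38, the assembly of mm10) holds 67 of them, and 65 had a row among the 37437 genes of the deposited files, while Hist1h2bm and Hist1h2bh had no row. In the CTCF knockdown group (shCTCF, 2 libraries), primary mouse cortical culture received adeno-associated virus directed against Ctcf, the gene of a DNA-binding protein that sits at insulators and anchors loops of chromatin. In the control group (shLAC, 2 libraries), the same kind of culture received virus directed against lacZ, a bacterial gene that mouse cells lack. Both groups were therefore infected cells, and the sources used here give no strain, age, time after infection or viral promoter. The comparison asked how RNA levels in cultured cortical neurons differ when Ctcf is knocked down. Values were deposited as TPM, in which a gene's estimated reads are first divided by its length. The quotient is then expressed as a share of the sum of these quotients over all genes of the library.

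Most messenger RNAs end in a poly(A) tail, but replication-type histone messages usually end just after a conserved stem-loop that is bound by the stem-loop binding protein, and they are made mainly during DNA synthesis. Cells that no longer divide, such as neurons, rely largely on replacement histones encoded by other, polyadenylated genes, although some genes of the clusters also give polyadenylated transcripts. The labels name total RNA and do not say whether poly(A) RNA was selected, so the detection of these messages is reported as found.

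The stem-loop was searched for after the stop codon of each gene's longest protein-coding GENCODE transcript, called its model here. A stem-loop in another transcript of the gene would be missed. The rule asked for a 6-base stem beginning with GG, a 4-base loop beginning with TT, and a pairing stem ending with CC. G was allowed to pair with T. Such a stem-loop was found in 43 of the 67 annotated genes (64.2%), and the fixed bases limit how much its forms can differ. The same rule was met anywhere in any protein-coding transcript by 410 of 21866 protein-coding genes (1.88%). That search was wider, since it took every such transcript and its whole length. The 43 genes held 6 different stem-loops, each shown once with 5 flanking bases on each side, since the end of the model is what divides these genes below. Capitals mark the stem-loop, and the sequence is that of the GRCm38 transcript, 5′ to 3′.
Hist2h2aa2: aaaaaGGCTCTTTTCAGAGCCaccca
Hist1h4d: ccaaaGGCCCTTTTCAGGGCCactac
Hist1h2bk: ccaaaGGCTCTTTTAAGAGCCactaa
Hist1h4b: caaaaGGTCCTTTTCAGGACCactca
Hist1h4i: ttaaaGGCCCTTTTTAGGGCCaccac
Hist2h2ac: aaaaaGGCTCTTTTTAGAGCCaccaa
The form shown for Hist2h2aa2 was the most frequent, in 25 genes of the H1, H2A, H2B and H3 types and in no H4 gene. The form of Hist1h4d occurred in 7 genes, all of the H4 type. The form of Hist1h2bk occurred in 6 genes, 3 of them H3 genes. The forms of Hist1h4b and Hist1h4i occurred in 2 H4 genes each, and that of Hist2h2ac in this H2A gene alone. The models without a match are 15 of the 67 that end at the stop codon (at most 10 bases after it) and therefore hold no sequence to search, and 9 with a longer 3′ UTR in which none was found.

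Hist1h2bc, which encodes an H2B protein, stands among those 9. Its model (chromosome 13, 23684199 to 23692908, plus strand, GRCm38) has 2 exons and 1156 bases. It splices 9 bases after the stop codon across an intron of 7554 bases into a last exon of 733 bases. The deposited values are per gene, so they do not tell which transcript of Hist1h2bc changed. The 30 bases around the exon junction are shown because this is the histone gene whose level passed the test, with the stop codon in capitals.
Hist1h2bc: tccaagTGAtcctgccaagaggagcagacc

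The libraries were first checked against their labels. Ctcf had 3.56 and 3.56 TPM in the shCTCF libraries, against 8.49 and 7.32 TPM in the shLAC libraries. Replicate 2 of shLAC stood apart: the satellite-like predicted genes Gm10719 and Gm10800 held 8.55% of its TPM, against 0.17% to 0.768% in the other libraries, which lowers every other gene there. Values below are therefore scaled TPM, the deposited TPM divided by a median-ratio factor per library (0.833 to 1.1). On this scale Ctcf in shCTCF was at 39.2% of shLAC (log2 fold change -1.13, limma adjusted p = 0.0173). The change was -1.10 without shCTCF replicate 1 and -1.15 without shCTCF replicate 2, where the limma adjusted p over all tested genes was 0.0984 and 0.0785, and without shCTCF replicate 2 it was 0.0532 over coding genes. Without scaling, the median log2 fold change over all 12816 tested genes was 0.17 in place of 0. Summed markers of neurons stood at 1113 and 1090.1 scaled TPM in shCTCF and at 1069.7 and 1061 in shLAC. All 7 markers of proliferating cells were detected as well, with sums of 33.3 and 37.9 in shCTCF and of 32.6 and 36.8 in shLAC. The 7 astrocyte markers summed to 88.3 and 72.5 in shCTCF and to 111 and 96.3 in shLAC, and all 7 had negative changes. Of these, Aqp4 and Slc1a3 were called lower in a fit over coding genes (limma adjusted p = 0.0187 and 0.0249), as was Dcn of the fibroblast markers (0.0249), while Rbfox3 of the neuron markers was called higher (0.0496). The part of cell composition in the results below was not tested. The 6 markers of radial glia and progenitors, which can divide, summed to 73.8 and 70.8 in shCTCF and to 67 and 64.4 in shLAC without overlap. Vim made up most of these sums, with 49.8 and 49.3 in shCTCF, against 45.6 and 42.6 in shLAC. The 4 of the 6 markers that were tested had positive changes, none called. Only Vim among these 4 had groups without overlap. The 6 oligodendrocyte lineage markers summed to 82 and 74.5 in shCTCF and to 80.8 and 67.4 in shLAC, and all 6 had positive changes, none called. At most 1 marker each of microglia, fibroblasts and endothelium reached the level needed for testing, and the endothelial marker Cldn5 was listed at 0 in every library. In such bulk samples, fewer cells of a type and less RNA per cell cannot be told apart. Since no label ties a replicate to a culture of its own, p-values measure only how these libraries vary, and that variation may be technical.

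Most of the family was detected in this RNA. Of the 65 genes, 64 had a value above 0 in at least 1 library, 60 were above 0 in all 4, and 57 reached 1 TPM in at least 2 libraries and were tested. A mean of at least 10 TPM was reached by 49. Together the genes held 0.187% and 0.214% of all TPM in the shCTCF libraries, against 0.183% and 0.152% in the shLAC libraries. By cluster, 46 of 52 Hist1 genes, 8 of 10 Hist2 genes, both Hist3 genes and the only Hist4 gene were tested. By type, 5 of 6 H1 genes, 16 of 18 H2A genes, 13 of 16 H2B genes, 11 of 12 H3 genes and 12 of 13 H4 genes were tested.

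The 8 genes not tested lay at or below 1.45 TPM in every library. They include Hist1h1t, Hist1h2aa and Hist1h2ba, the testis forms of H1, H2A and H2B. Hist1h2aa was listed at 0 in all 4 libraries, and Hist1h2ba was listed at 0 in all but shLAC replicate 2. Hist2h3c1 was listed at 0 in both shCTCF libraries and at 0.643 and 0.648 scaled TPM in the shLAC libraries. Reads of near-identical copies may be split arbitrarily: all 101-base windows of Hist2h3c1 also occur in other genes, so its value is uncertain. Hist1h2ao, Hist1h4m and Hist1h2bq are near-identical to tested genes, and Hist2h2be, a gene with a long 3′ UTR, completes the group.

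**Figure D1:**
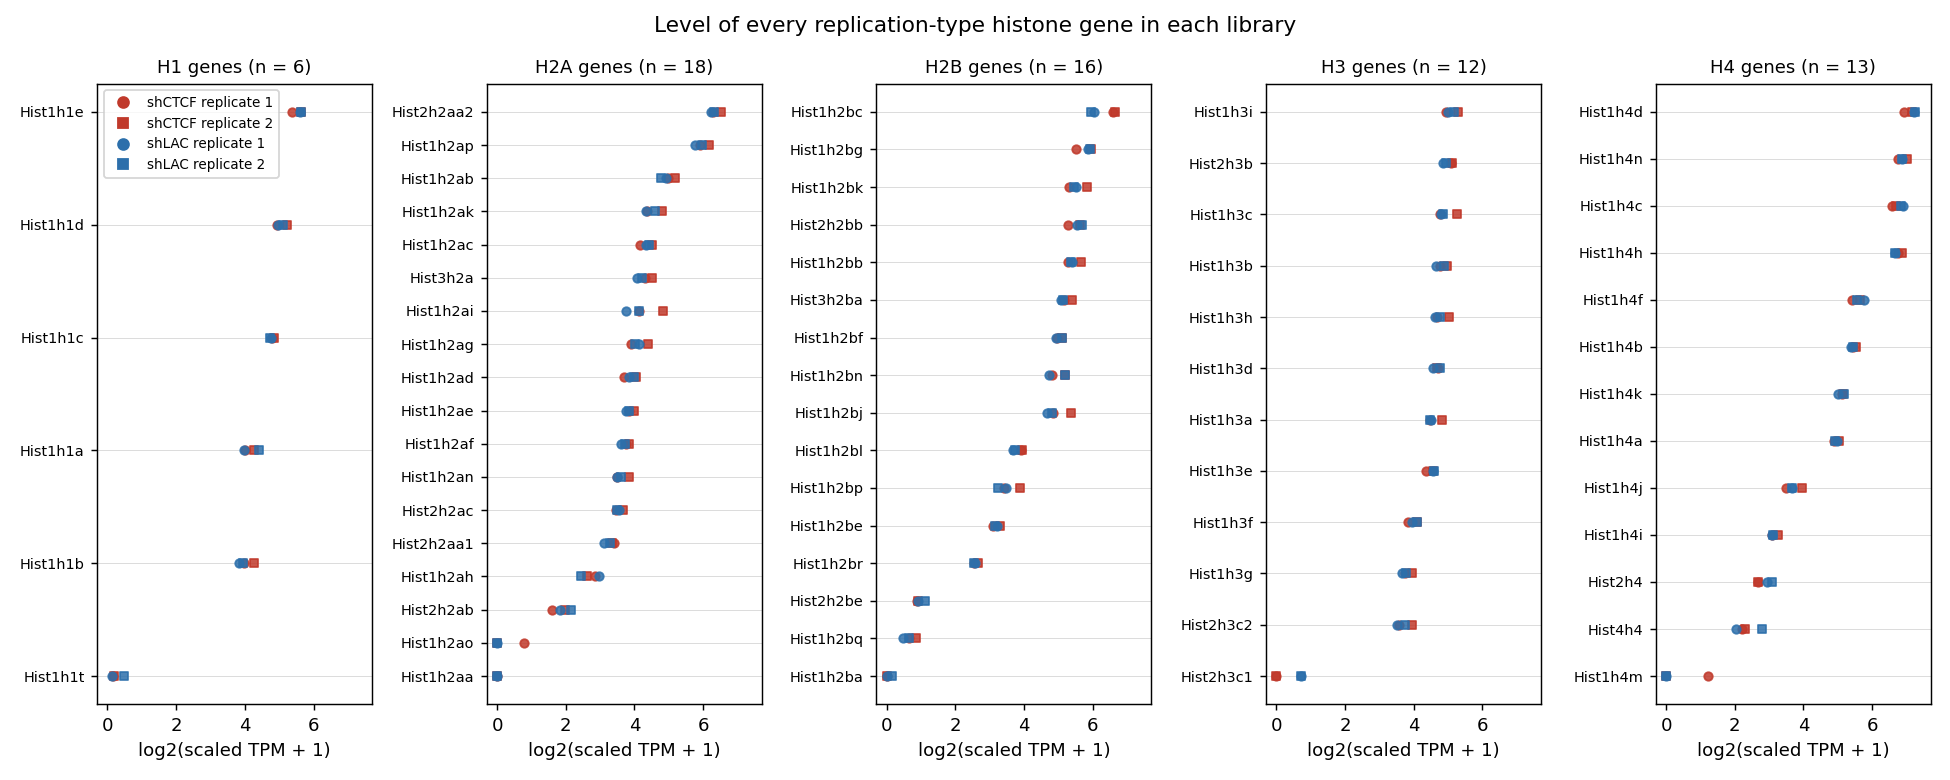
Level of every replication-type histone gene as log2(scaled TPM + 1), in 5 panels by histone type, with genes ordered by their mean. Red points are the shCTCF libraries and blue points the shLAC libraries (circle for replicate 1, square for replicate 2). The points of most genes lie close together, and Hist1h2bc has both red points to the right of both blue points.

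Hist1h2bc was the only member whose level passed the test between shCTCF and shLAC, and it was higher in shCTCF. It had 104.06 and 104.07 TPM as deposited in the shCTCF libraries, against 67.4 and 51.09 TPM in the shLAC libraries. After scaling it stood at 95 and 99.1 in shCTCF (mean 97.1 ± 2.94, SD, n = 2) and at 64.6 and 61.3 in shLAC (mean 63.0 ± 2.35, SD, n = 2), so that the groups did not overlap and replicates lay close together. The level in shCTCF was 1.54-fold that in shLAC, a log2 fold change of 0.62 (SE 0.0519, 95% interval 0.48 to 0.75) with a limma adjusted p of 0.0355 over 12816 genes. In that test 0.367% of all tested genes were called higher and 0.679% lower, beside 1 member higher and 0 lower of 57. In a second fit, restricted to the 11280 tested protein-coding genes with a transcript of at least 300 bases, Hist1h2bc was again the only member called higher, with a limma adjusted p of 0.0061. There 2.23% of genes were called higher and 3.15% lower, so 1 call among 57 members is near the background share. No member was called lower in either fit. The call rests on few libraries: without shCTCF replicate 1, shCTCF replicate 2 or shLAC replicate 2 the adjusted p over all tested genes was 0.196, 0.222 and 0.0613, with log2 fold changes of 0.65, 0.59 and 0.58. It was also lost with no filter on low values (limma adjusted p = 0.0863) and with the replicate number as a block (0.0827), both with a log2 fold change of 0.62. In the coding-gene fit, in which the block and each left-out library were tried, it was lost without shCTCF replicate 2 (limma adjusted p = 0.0667) and in no other of these settings.

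Of the genes next to Hist1h2bc, none passed the test. Hist1h2ac, an H2A gene, lies head to head with it, with 250 bp between the genes. It had 16.9 and 21.9 scaled TPM in shCTCF, against 19.3 and 20.5 in shLAC, and its groups overlapped (log2 fold change -0.05, limma adjusted p = 0.873). On the other side lie Hist1h1t, which was too low to test, and then Hist1h4c, an H4 gene. Hist1h4c had 95.1 and 103 scaled TPM in shCTCF, against 119 and 114 in shLAC, so that both shCTCF libraries lay below both shLAC libraries. Its log2 fold change of -0.23 had an unadjusted p of 0.0159 and a limma adjusted p of 0.163, was -0.03 without scaling, and was called in the coding-gene fit without shLAC replicate 2 (-0.27). Hist1h2bg, an H2B gene farther along the same block of Hist1, shares the most sequence with Hist1h2bc: 19.4% of the 101-base windows of Hist1h2bc occur in it, and 25.3% occur in any other gene. It had 44.8 and 61.1 scaled TPM in shCTCF and 56.9 and 59.2 in shLAC, with 1 shCTCF library above and 1 below both shLAC libraries (log2 fold change -0.15, limma adjusted p = 0.643).

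**Figure D2:**
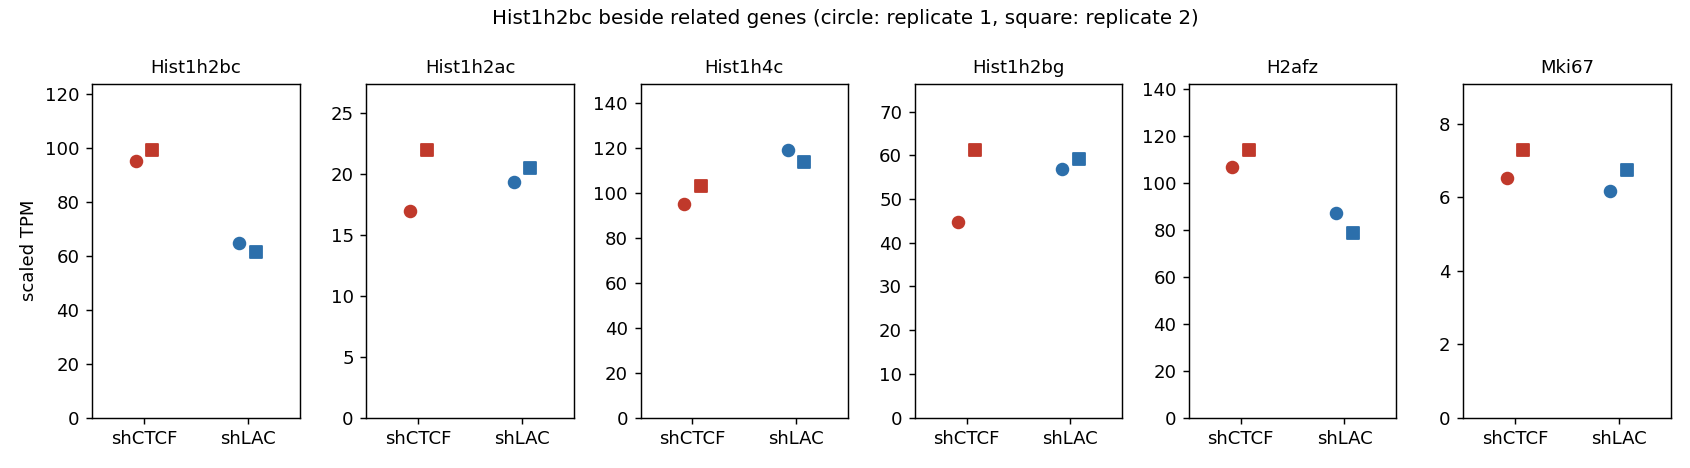
Scaled TPM of Hist1h2bc, its neighbours Hist1h2ac and Hist1h4c, the H2B gene closest to it in sequence (Hist1h2bg), the variant H2afz and the proliferation marker Mki67 in the shCTCF libraries (left in each panel) and the shLAC libraries (right). Each panel has its own vertical axis from 0. The shCTCF points lie above the shLAC points for Hist1h2bc (95 and 99.1 against 64.6 and 61.3) and for H2afz. They lie below for Hist1h4c, and the groups overlap for the other 3 genes.

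The other 56 tested members had log2 fold changes of -0.32 to 0.54, and their limma adjusted p-values began at 0.125 over all tested genes and at 0.0558 over coding genes. With the replicate number as a block, the coding-gene fit added calls: Hist1h1b, Hist1h2ai, Hist1h2bl, Hist2h3b and Hist3h2a higher and Hist2h4 lower. Calls rose among all genes too, to 533 higher and 659 lower of 11280, from 252 and 355 without the block. In the coding-gene fit without shLAC replicate 1, the log2 fold change was 0.31 for Hist1h2ab, -0.39 for Hist2h4 and -0.55 for Hist4h4. In that fit without shLAC replicate 2, it was 0.73 for Hist1h2ai, 0.24 for Hist2h3b, 0.36 for Hist3h2a and -0.27 for Hist1h4c. These genes were picked after their values were seen, as those called there besides Hist1h2bc. The 95% interval included 0 for 50 of the 57 members. It lay within a 1.5-fold change either way for 48 members, and within a 2-fold change for 56. An unadjusted p below 0.05 was given by limma to 7 members, 5 higher and 2 lower, while 20.0% of all tested genes had one. Both shCTCF libraries lay above both shLAC libraries for 14 of the 57 members and below both for 3, against 27.6% and 25.4% of all tested genes. The median log2 fold change was 0.07 in the 57 members and 0 in all tested genes, and 43 members (75.4%) had a positive value, against 50.5% of all tested genes. As deposited, without scaling, 53 of the 57 values were positive with a median of 0.26, against 87.0% and 0.17 for all tested genes.

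Members also differed between the libraries of 1 group. In 54 of 57 members (94.7%) shCTCF replicate 2 was above shCTCF replicate 1, with a median difference of 0.24 on the log2 scale, larger than the median of 0.07 between the groups. Among all tested genes this held for 49.7%, with a median of 0. Between the shLAC libraries replicate 2 was above replicate 1 in 40 of 57 members (70.2%, median 0.08) and in 48.9% of all tested genes. Among 131 other coding genes with transcripts of 300 to 700 bases, 59.5% were higher in shCTCF replicate 2 (median 0.04) and 43.5% in shLAC replicate 2 (median -0.03). Hist1h2bc moved little within its groups, as its values above show.

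**Figure D3:**
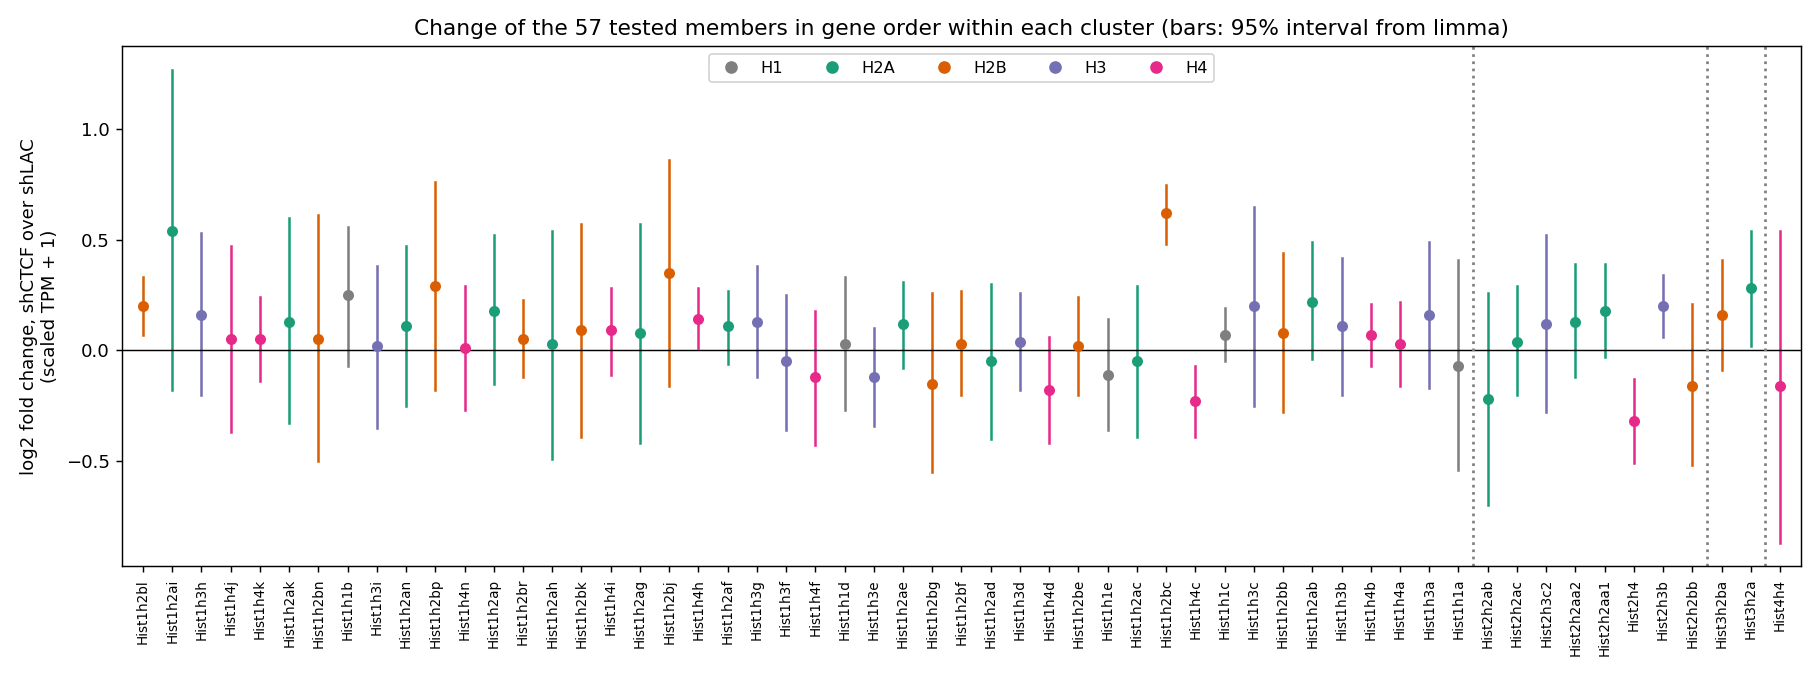
Log2 fold change, shCTCF over shLAC, of the 57 tested members in gene order along the Hist1, Hist2, Hist3 and Hist4 clusters (dotted lines part the clusters). Points are coloured by histone type and bars are 95% intervals from limma. Hist1h2bc, at 0.62, stands highest with a narrow interval, and Hist1h2ai, at 0.54, has a wide interval that includes 0.

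The H4 genes, which encode the core histone that pairs with H3, were the most abundant type. Their 13 genes summed to 605 and 684 scaled TPM in shCTCF (34.4% of the members' sum) and to 668 and 667 in shLAC (37.3%), so the groups overlapped. Hist1h4d, the most abundant member, had 121 and 143 scaled TPM in shCTCF, against 147 and 151 in shLAC. Its groups did not overlap, but the log2 fold change of -0.18 (SE 0.0905) did not pass the test (limma adjusted p = 0.349), and it was 0.02 without scaling. Hist1h4c, described above, also had both shCTCF libraries below both shLAC libraries. Hist1h4h had 108 and 115 in shCTCF, against 101 and 100.1 in shLAC, with the shCTCF libraries above (0.14, limma adjusted p = 0.232). Hist1h4n had 106 and 129 in shCTCF, against 116 and 116 in shLAC (0.01, limma adjusted p = 0.972). Hist1h4f had 41.9 and 49.4 in shCTCF, against 53.6 and 46.1 in shLAC (-0.12, limma adjusted p = 0.588). For both of these the groups overlapped. Hist2h4, picked after its values were seen because its unadjusted p was next to that of Hist1h2bc, had 5.39 and 5.45 scaled TPM in shCTCF, against 6.62 and 7.45 in shLAC. Its log2 fold change of -0.32 (SE 0.07) missed the threshold in both fits (limma adjusted p = 0.125 over all tested genes and 0.0558 over coding genes). It was called lower in the coding-gene fit with the replicate number as a block (-0.32) and without shLAC replicate 1 (-0.39).

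The H2B genes, whose protein forms a dimer with H2A, summed to 411 and 509 scaled TPM in shCTCF and to 401 and 419 in shLAC, overlapping. Without Hist1h2bc the sums were 316 and 409.7 in shCTCF and 337 and 358 in shLAC, or 104% of the shLAC mean in place of 112%. Hist1h2bk, the holder of a stem-loop shown above, had 38.8 and 56.0 scaled TPM in shCTCF, against 44.7 and 42.8 in shLAC (log2 fold change 0.09, limma adjusted p = 0.815). Hist2h2bb had 37.4 and 48.6 in shCTCF, against 45.5 and 50 in shLAC (-0.16, limma adjusted p = 0.569), and all of its 101-base windows also occur in other genes. In both genes the groups overlapped. Hist1h2bl, chosen after its values were seen, had 13.9 and 14.3 scaled TPM in shCTCF, against 11.9 and 12.3 in shLAC, without overlap (0.20, limma adjusted p = 0.139).

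The 18 H2A genes summed to 327 and 402 scaled TPM in shCTCF and to 315 and 337 in shLAC. Hist2h2aa2 had 76.6 and 91.1 in shCTCF, against 74.1 and 78.1 in shLAC (log2 fold change 0.13, limma adjusted p = 0.487). It is a copy of Hist2h2aa1, and the pair summed to 86.3 and 100.3 in shCTCF and to 81.7 and 86.9 in shLAC, so the groups overlapped by less than 1 scaled TPM. Hist1h2ap had 58.5 and 71.7 in shCTCF, against 53.0 and 61.3 in shLAC (0.18, limma adjusted p = 0.474), also overlapping. Hist1h2ai was picked after its values were seen for the size of its change. It had 16.6 and 27.6 scaled TPM in shCTCF, against 12.5 and 16.5 in shLAC, and most of its difference came from shCTCF replicate 2. Its log2 fold change of 0.54 had an interval of -0.18 to 1.27 (limma adjusted p = 0.348), and it was called in neither fit. It was called without scaling (0.74, limma adjusted p = 0.0278), where standard errors come from the trend over genes and not from the gene's own spread, and in the coding-gene fit with the replicate number as a block (0.54) and without shLAC replicate 2 (0.73). Of its 101-base windows, 88.4% also occur in other genes.

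The 12 H3 genes summed to 241 and 290.5 scaled TPM in shCTCF and to 237 and 259 in shLAC, and no H3 gene reached the 12 highest levels. Hist2h3b, chosen after its values were seen, had 32.7 and 33.9 scaled TPM in shCTCF, against 27.9 and 29.7 in shLAC, without overlap (log2 fold change 0.20, limma adjusted p = 0.155). All of its windows also occur in the predicted gene Gm20628. With the H3 genes Hist2h3c1 and Hist2h3c2 of the same cluster it summed to 43.5 and 48.2 in shCTCF and to 39.1 and 42.7 in shLAC. The 6 linker histone H1 genes summed to 127 and 149.7 scaled TPM in shCTCF and to 132 and 143 in shLAC. Hist1h1e, the H1 gene with the highest level, had 40.6 and 48.6 in shCTCF, against 47.6 and 48.5 in shLAC (-0.11, limma adjusted p = 0.562). H1 as a type stood at 100.4% of its shLAC mean.

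**Figure D4:**
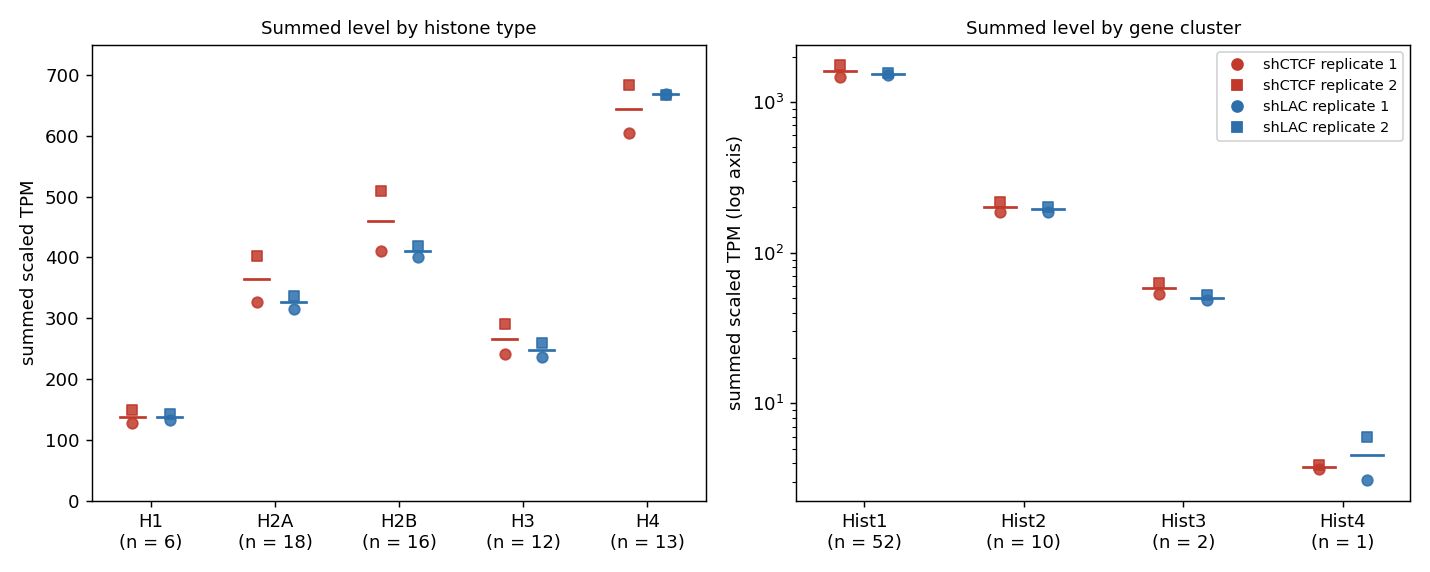
Summed scaled TPM of the members by histone type (left) and by gene cluster (right, log axis), with shCTCF libraries in red and shLAC libraries in blue and short lines at the group means. H4 has the highest sum of the 5 types. The red and blue points overlap for every type and for Hist1, Hist2 and Hist4, and those of Hist3 (53.5 and 63.0 against 48.4 and 52.1) do not.

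By cluster, the Hist1 genes (chromosome 13, 21715763 to 23934851) summed to 1468 and 1749.8 scaled TPM in shCTCF and to 1515 and 1565 in shLAC, a log2 ratio of group means of 0.06. The Hist2 genes (chromosome 3, 96219865 to 96270132) summed to 185 and 218 in shCTCF and to 187 and 202 in shLAC, a log2 ratio of 0.05. In both clusters the sums overlapped. Hist3, a pair of genes on chromosome 11 (58948920 to 58956830), was the only cluster whose sums did not overlap, with 53.5 and 63.0 in shCTCF, against 48.4 and 52.1 in shLAC, a log2 ratio of 0.21. Hist3h2a had 18.8 and 22 scaled TPM in shCTCF, against 15.7 and 17.6 in shLAC, and Hist3h2ba had 34.6 and 41.0 in shCTCF, against 32.8 and 34.4 in shLAC. Their log2 fold changes were 0.28 and 0.16, and neither passed the test (limma adjusted p = 0.232 and 0.404). Hist4h4 (chromosome 6, 136801553 to 136804415) had 3.65 and 3.91 scaled TPM in shCTCF, within the 3.10 and 5.99 of shLAC (log2 fold change -0.16, limma adjusted p = 0.774). With 2 libraries against 2, an exact permutation test of a sum cannot give a p below 0.33, so the sums carry no test. Without shCTCF replicate 2 the log2 ratio was -0.07 for Hist1 and for Hist2 and 0.09 for Hist3, and for Hist4 it was -0.27 with all libraries and 0.28 without shLAC replicate 2. Within Hist1, gaps over 200 kb part 3 blocks. The block at 21715763 to 21837530 had positive changes in all 14 tested genes (median 0.12) and that at 22035164 to 22043676 in all 5 (median 0.09). In the block at 23531050 to 23934851, which holds Hist1h2bc, 17 of 27 were positive (median 0.03). Among all tested genes 50.5% were positive. The first block summed to 382 and 475 scaled TPM in shCTCF and to 374 and 412 in shLAC. The next summed to 93.7 and 130.3 in shCTCF and to 100 and 97.2 in shLAC. The last summed to 993 and 1144 in shCTCF and to 1041 and 1056 in shLAC. The sums overlapped in all 3 blocks.

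Many H2A and H2B genes lie head to head and share the stretch between their starts. There were 12 such pairs with 175 to 305 bp between the genes, and both genes were tested in 9. Both changes were positive in 6 of the 9. The pair of Hist1h2ac and Hist1h2bc differed most in this set, with log2 fold changes of -0.05 and 0.62. The next widest was that of Hist1h2bl and Hist1h2ai, with 0.20 and 0.54.

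Values per gene do not tell which transcript of a gene was present. The end of the model, which the choice of genes did not use, divided the members as follows. Models that end at the stop codon had a median log2 fold change of 0.11 (13 tested), and those that end within 100 bases after the stem-loop had 0.10 (18 tested). Models that run more than 100 bases past it had 0.02 (19 tested), with sums of 545 and 639 scaled TPM in shCTCF, against 616 and 637 in shLAC. Models with a 3′ UTR and no stem-loop, Hist1h2bc among them, had a median of 0.13 (7 tested) and summed to 199.5 and 218 in shCTCF, against 165 and 168 in shLAC. Without Hist1h2bc these sums were 105 and 119 in shCTCF, against 101 and 107 in shLAC, and overlapped. These differences between kinds of model were not tested, and all medians lie within the 0.24 found between the shCTCF replicates. Shared sequence cannot be set aside in this family. Of the tested members, 24 share at least 50% of their 101-base windows with other genes and had a median change of 0.10, and the 33 that share less had a median of 0.04.

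**Figure D5:**
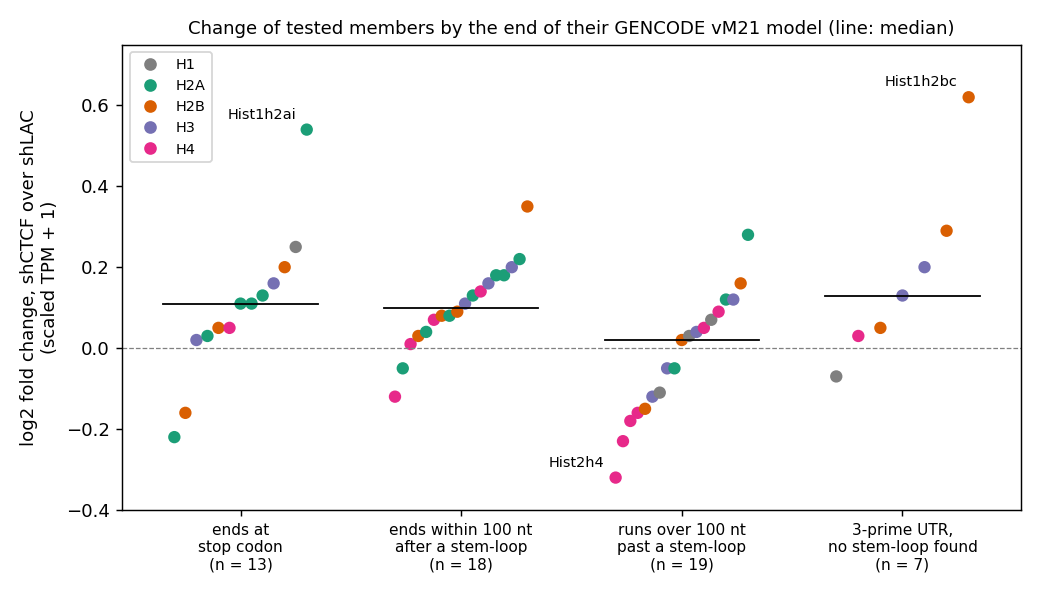
Log2 fold change, shCTCF over shLAC, of the tested members by how their GENCODE model ends, coloured by histone type, with a line at each median. The medians are 0.11, 0.10, 0.02 and 0.13 from left to right. Hist1h2bc, at 0.62, belongs to the 7 models with a 3′ UTR in which no stem-loop was found.

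Genes that work with these histones were described from lists. Of 11 tested replication-independent histone variants, no gene passed the limma test over all genes, and 1 was called higher over coding genes. That gene was H2afz, the variant placed at promoters and enhancers, with 107 and 114 scaled TPM in shCTCF, against 87.2 and 78.6 in shLAC. The groups did not overlap, and the log2 fold change of 0.41 (SE 0.07) had a limma adjusted p of 0.0249 over coding genes and of 0.09 over all tested genes. The call over coding genes was lost without shCTCF replicate 1 (limma adjusted p = 0.0969) and without shCTCF replicate 2 (0.183). The 11 variants had a median of 0.03, with 7 positive, and the variants in the files summed to 415 and 428 in shCTCF and to 399 and 398 in shLAC. None of the 20 tested genes of histone pre-mRNA processing and decay passed in either fit (median -0.05, 5 positive). Both shCTCF libraries lay below both shLAC libraries in 10 of the 20 and above both in 2. Among all tested genes the shares were 25.4% and 27.6%. Slbp, the stem-loop binding protein, had 9.14 and 11.3 scaled TPM in shCTCF, against 9.57 and 9.58 in shLAC. Npat, the coactivator of histone gene transcription, had 3.25 and 2.93 in shCTCF, against 3.56 and 3.74 in shLAC (log2 fold change -0.19, limma adjusted p = 0.246). The 2 genes of this list with the highest levels belong to the cleavage and polyadenylation machinery, and both overlapped between groups. Fip1l1 had 16 and 17.5 in shCTCF, against 18.1 and 17.3 in shLAC (-0.08, limma adjusted p = 0.53). Cstf2 had 16.4 and 15.6 in shCTCF, against 16.8 and 16.2 in shLAC (-0.05, limma adjusted p = 0.661).

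Of 22 histone chaperones and related genes (median -0.04, 8 positive), none passed over all tested genes and 1 was called lower over coding genes. Asf1a, a chaperone of H3 and H4, had 2.67 and 2.64 scaled TPM in shCTCF, against 3.67 and 3.47 in shLAC (log2 fold change -0.32, limma adjusted p = 0.0487 over coding genes and 0.0994 over all tested genes). The call over coding genes was lost without shCTCF replicate 1 (limma adjusted p = 0.178), shCTCF replicate 2 (0.246) or shLAC replicate 1 (0.0842). Of 26 tested S phase and cell cycle genes none passed in either fit, 17 had positive changes and the median was 0.02. Tyms, of thymidylate synthesis, had 30.7 and 28.2 scaled TPM in shCTCF, within the 25.2 and 36.1 of shLAC (log2 fold change -0.04, limma adjusted p = 0.937). The cyclin gene Ccnd1 had 27.4 and 24.1 in shCTCF, against 30.4 and 28.6 in shLAC, without overlap (-0.19, limma adjusted p = 0.271). These 2 genes had the highest levels of the list. The proliferation marker Mki67 had 6.51 and 7.27 scaled TPM in shCTCF, against 6.18 and 6.73 in shLAC, overlapping. S phase genes were also higher in the second replicate of each group, in 18 of 26 for shCTCF (median 0.10) and in 19 of 26 for shLAC (median 0.09). Whether the number of dividing cells had a part in the members' levels was not tested.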

How the data were processed

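Total RNA of 4 libraries of cultured cortical neurons was analysed, 2 of shCTCF and 2 of shLAC, grouped by their labels. Paired reads of 101 bases came from fragments near 300 bp, per the labels' protocols. The deposited values are TPM per Ensembl gene, and the submitters' processing notes name RSEM 1.2.28, CASAVA and mm10. The sources used here name no annotation release, aligner or strand setting. TPM keeps no depth and estimates short genes poorly, and most members are short. Overlapping or antisense genes cannot be told apart where strand was not used.

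GENCODE vM21 supplied names, types, models and transcript sequences, and 37060 of 37437 identifiers matched. Testing was limited to genes that reached 1 TPM in 2 or more libraries. The test was limma 3.58.1 (R 4.3.3) on log2(scaled TPM + 1), without covariates, with a variance prior that follows the trend over expression and with p-values adjusted after Benjamini and Hochberg over every tested gene (threshold 0.05). Such fold changes understate those of low genes. Alternatives were the same fit over coding genes of at least 300 bases, the deposited scale, other filters, a pseudocount of 0.5, no trend, the replicate number as a block, and 1 library removed at a time, which assumes that the lone library left in a group has the spread of the other group. The main fit was also run on simulated data with independent noise per gene. Those data held no shift shared by members within a replicate and no reads shared between members, so that run cannot speak to either. Sequence sharing is the percentage of a gene's 101-base windows found in another gene's transcripts.

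The members and lists were chosen with earlier results of these data known. The text names members called in either fit, the 12 with the highest mean, Ctcf, and for each list the called genes or the 2 with the highest mean. Any other gene was picked for its role or once its values were known.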

Additional observations from a re-analysis of the deposited data

How the results depend on the processing

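Hist1h2bc kept a log2 fold change of 0.58 to 0.82 in every setting run, and its call over all tested genes was lost in the settings named with its result. The count of members called higher over all tested genes, 1, became 2 as deposited, 0 with no filter on low values and 0 with a replicate block, and 0 to 1 when each library was left out. The count called lower stayed 0 in all of these. Labels do not say that replicate numbers mark shared cultures. Deviations of same-numbered libraries correlated at r = 0.082 over 12816 genes with only 2 pairs, so the numbers were not taken as pairs. Among the members, though, replicate 2 was above replicate 1 in 54 of 57 for shCTCF and in 40 of 57 for shLAC. In the coding-gene fit, settings added after the data were seen gave 6 members higher and 1 lower with the replicate block, and 0 to 4 higher and 0 to 2 lower when each library was left out. As deposited, the summed log2 ratios of Hist1, Hist2 and Hist3 were 0.26, 0.25 and 0.41. Left-out libraries gave -0.07 to 0.19, -0.07 to 0.17 and 0.09 to 0.33 for these, and -0.66 to 0.28 for Hist4. Over all tested genes, 47 higher and 87 lower calls became 246 and 116 as deposited, 252 and 355 over coding genes, 11 and 13 without the filter, 8 and 12 with the block (533 and 659 over coding genes), and 0 to 76 and 8 to 117 when a library was left out. In the coding-gene fit, leaving out a library gave 0 to 433 higher and 3 to 515 lower. The causes were not tested. The count of members detected was 57 to 60 under the TPM thresholds tried and with left-out libraries, and 64 with no filter on low values. TPM keeps no depth, so counting error is unknown, and shared sequence may move reads between members.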
